A study of Mus musculus with 5 samples.

Results

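The C-type lectin-like receptors of myeloid cells were examined as 10 named genes in sorted brain microglia, the resident macrophages of the brain. They were Clec4a1, Clec4a2, Clec4a3, Clec4d, Clec4e, Clec4n, Clec5a, Clec12a, Cd69 and Cd72, and all 10 were found by symbol among the 41388 genes of the count table. RNA was sequenced from eYFP-positive cells of C57Bl/6 mice aged 4 weeks that had received 2 mg tamoxifen on postnatal days 14 and 16. In the A20 deletion group, with 3 libraries and the genotype label eYFP-A20Dmg, the microglia are described as fully deficient for A20. In the control group, with 2 libraries and the label eYFP-A20fl/wt Cx3cr1-CreERT2/+, they are described as partially deficient. The enzyme A20 is the product of Tnfaip3 and dampens NF-kB activation by editing ubiquitin chains. The comparison asks how microglia differ without it.

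Several features limit these groups as models. The controls carried 1 floxed allele and a tamoxifen-inducible Cre at Cx3cr1, were given tamoxifen too, and so are not untouched wild-type cells. Cx3cr1 is also expressed by other macrophages and monocytes. The labels do not spell out the Cre allele of the deletion group, nor say whether each library is a different animal. A p-value then measures only the spread between these libraries, which may be technical. In sorted bulk RNA, fewer cells of a type and less RNA per cell cannot be told apart.

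C-type lectin-like receptors are surface proteins that share a carbohydrate-recognition fold, although many of them bind ligands other than sugars. Many activating members, though not all, pair with the adaptors FcRgamma or DAP12. These adaptors carry an activation motif that recruits the kinase Syk and, through Card9, Bcl10 and Malt1, NF-kB. Inhibitory members carry their own inhibitory motif, which recruits the phosphatases encoded by Ptpn6, Ptpn11 and Inpp5d. Microglia use receptors of both kinds to sense dying cells, lipids and microbes.

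The 10 genes were chosen with values of this same comparison in view. Their fold changes are therefore given as descriptions, with no p-value, and nothing is supported with them. No threshold was used in the choice.

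Promoter sequences are shown for Cd72, the one gene with an entry that was called between the groups in the fit of all genes, for Clec5a, one of the 3 most abundant genes, and for Clec4a1. Each is the 250 bases before the RefSeq start (GRCm38.p6), read 5′ to 3′ on the gene's own strand, and capitals mark matches to GAGGAA, the core bound by the myeloid factor PU.1, on either strand. They lie at chr4:43454627-43454876 (minus strand) for Cd72, chr6:40585806-40586055 (minus strand) for Clec5a and chr6:122921598-122921847 (plus strand) for Clec4a1.
Cd72: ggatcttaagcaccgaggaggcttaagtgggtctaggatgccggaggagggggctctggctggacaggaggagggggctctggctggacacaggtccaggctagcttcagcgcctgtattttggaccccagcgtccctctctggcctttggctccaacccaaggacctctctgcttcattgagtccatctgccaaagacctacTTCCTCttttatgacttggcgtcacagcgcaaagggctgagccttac
Clec5a: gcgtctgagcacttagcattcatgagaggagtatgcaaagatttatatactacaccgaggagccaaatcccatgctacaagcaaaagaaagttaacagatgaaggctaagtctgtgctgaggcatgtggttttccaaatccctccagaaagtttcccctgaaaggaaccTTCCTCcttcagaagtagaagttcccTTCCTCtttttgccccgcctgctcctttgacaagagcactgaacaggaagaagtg
Clec4a1: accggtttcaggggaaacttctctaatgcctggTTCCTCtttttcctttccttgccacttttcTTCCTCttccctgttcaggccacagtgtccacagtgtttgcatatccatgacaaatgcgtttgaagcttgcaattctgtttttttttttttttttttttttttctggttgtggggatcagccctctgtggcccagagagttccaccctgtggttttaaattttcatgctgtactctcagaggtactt

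Of the 8 genes with a promoter entry, 7 held the GAGGAA core in these 250 bases, as did 23.3% of 32851 mouse promoters. Clec4a2 was the exception among the genes. The share of all promoters is per entry, while the 8 genes had 9 entries. Clec4a3 held the core before the later of its starts only. The interferon-stimulated response element core and the kappaB motif matched in 0 of the 8, against 2.98% and 7.25% of all promoters. TTCNNNGAA, the STAT-binding motif, matched only in Clec4a2 and TGANTCA, the AP-1 motif, only in Clec12a, against 7.02% and 6.75% of all promoters. No match overlapped a match to another motif. These are letter matches within this window and show neither binding nor its absence.

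Clec4a1 and its neighbour Clec4a3 shared the longest stretch among 35 promoter pairs, with 48 identical bases in 55 aligned columns. The stretch lies before the second of 2 RefSeq starts of Clec4a3. It is shown here as 30 bases of each gene around the GAGGAA match, in capitals on the opposite strand, at chr6:122921611-122921640 and chr6:122952574-122952603, plus strand.
Clec4a1: gaaacttctctaatgcctggTTCCTCtttt
Clec4a3: tgacttctctaatgccctggTTCCTCtttt

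Cd69 and Cd72 were the members that stood far higher in the A20 deletion libraries. Cd69 (ENSMUSG00000030156, GRCm38 chromosome 6, 129267325 to 129275436, minus strand) encodes an early activation antigen of leukocytes that binds the sphingosine-1-phosphate receptor S1pr1. It stood at 29.8, 18.4 and 23.4 CPM (counts scaled to library totals) in A20 deletion libraries 1 to 3, against 0.996 and 0.641 CPM in control libraries 1 and 2. The lowest deletion library was far above both controls. The means were 23.9 ± 5.72 CPM (SD, n = 3) with deletion and 0.819 ± 0.251 CPM (SD, n = 2) in controls, a log2 fold change of 4.86 (SE 0.37).

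Cd72, an inhibitory co-receptor known from B cells whose ligand is the semaphorin Sema4d, had levels of 77.5, 42.1 and 59.4 CPM with deletion, against 8.61 and 7.31 CPM in the controls. Deletion library 1 was the highest and library 2 the lowest, and the groups did not overlap. Its mean was 59.7 ± 17.7 CPM with deletion (SD, n = 3), against 7.96 ± 0.915 CPM in controls (SD, n = 2), a log2 fold change of 2.91 (SE 0.30). The annotated exons of Cd72 (ENSMUSG00000028459, GRCm38 chromosome 4, 43446462 to 43454628, minus strand) span 3422 bases, and 1423 of them (41.6%) are also exon of Tesk1 on the other strand. Tesk1 stood at 61.9, 29.7 and 32.7 CPM in deletion libraries and 52.2 and 44.7 CPM in controls. Whether the counting used strand is not given in the sources used here, so reads in those bases cannot be told apart.

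**Figure D1:**
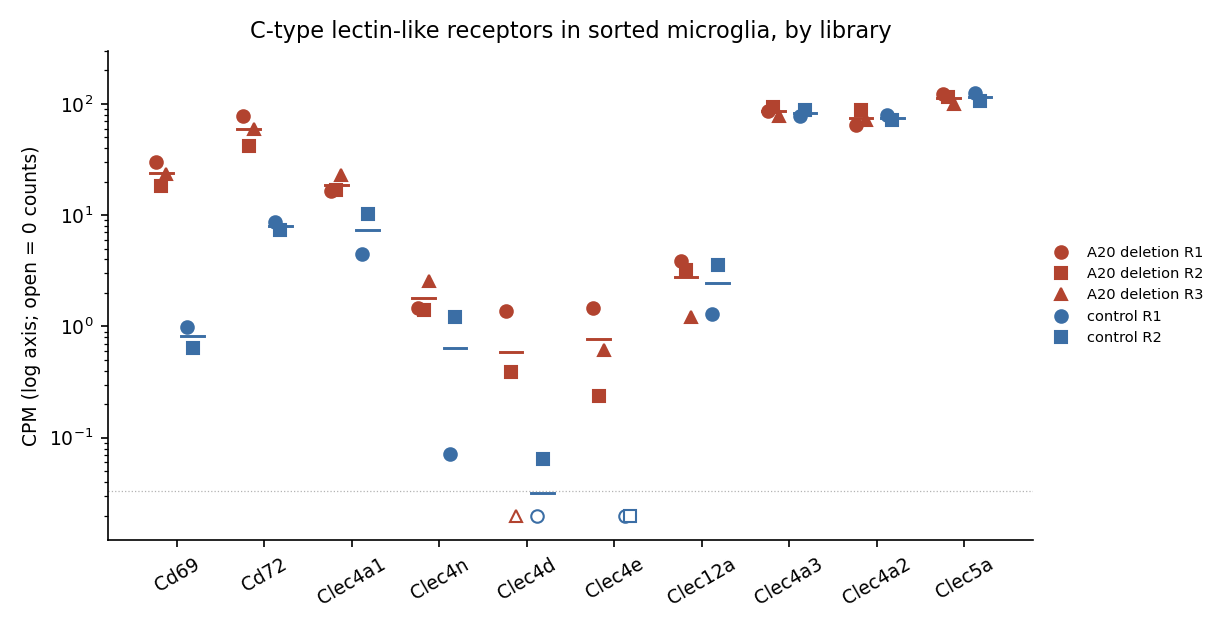
CPM of the 10 receptor genes in each library on a log axis, A20 deletion libraries in red and controls in blue, with a bar at each group mean and open symbols for 0 counts. Cd69 and Cd72 sit well apart between the groups, Clec4a1 less far, and Clec5a, Clec4a2 and Clec4a3 lie at about the same height in all 5 libraries.

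Cd69 and Cd72 also mark lymphocytes, so lymphocyte genes were read beside them. Of 12 T cell markers, 8 were higher in each deletion library than in both controls, where 21.8% of all genes tested were. Marker counts here and below also include genes that did not pass the filter on low counts. Cd3d, Cd3e, Cd3g, Trac and Trbc2 together held 26, 20 and 12 counts with deletion and 0 and 0 counts in controls. These 5 genes of the T cell receptor complex were picked from the list with their values known. Cd69 held 344, 234 and 230 counts in the same deletion libraries and 14 and 10 counts in the controls. The whole T cell list summed to between 64.1 and 72.9 CPM with deletion, against 84.0 and 90.1 CPM in controls, most of it from Il7r. Of 10 NK cell markers 2 (Klrk1 and Nkg7) were higher in each deletion library, and Eomes had 0 counts throughout. The list summed to between 1.43 and 4.59 CPM with deletion against 2.63 and 5.84 CPM in controls. Klrd1 alone gave 2.28 and 5.45 CPM of the control sums, and Klrb1c also averaged lower with deletion. Ncr1, Gzma, Gzmb, Prf1, Klrk1 and Klre1 had 0 counts in both controls and a few with deletion (8, 5 and 6 for Klrk1). The part of these cells in the Cd69 values was not tested.

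Of 8 B cell markers, the 5 not counted in every library (Cd79a, Ms4a1, Pax5, Vpreb3 and Fcrla) together held 3, 7 and 4 counts in the deletion libraries and 0 and 3 counts in the controls. Cd72 held 895, 536 and 583 counts in those deletion libraries and 121 and 114 counts in the controls. That division of the list was made after its values were seen. Of the 3 markers counted in every library (Ighm, Cd79b and Cd22), Cd22, an inhibitory lectin of B cells that is also expressed by microglia, rose 5.68-fold. It stood at 57.2, 37.3 and 48.1 CPM with deletion, against 8.82 and 7.89 CPM in controls (log2 2.51, SE 0.24, edgeR adjusted p = 0.00655). It was singled out with its values known, and its call was lost without control library 1 (edgeR adjusted p = 0.0967) and without control library 2 (edgeR adjusted p = 0.137). The list of 8 summed to between 443.2 and 461.5 CPM with deletion, against 282.8 and 349.9 CPM in controls. In it, 2 of 8 were higher in each deletion library, where 21.8% of all genes tested were. The part of B cells in the Cd72 values was not tested.

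Clec4a1, which encodes the DCIR-family receptor at one end of the Clec4 cluster, was moderately higher. Its levels with deletion were 16.5, 17.0 and 22.7 CPM, against 4.48 and 10.1 CPM in the controls. The groups did not overlap, but the controls differed from each other by more than the deletion libraries did on the log scale. The log2 fold change was 1.35 (SE 0.37). It was 0.84 without control library 1, 2.01 without control library 2, and 0.84 once each library's trend with gene length was removed.

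Clec4a3 and Clec4a2, the neighbouring DCIR-family genes, did not follow it. Clec4a3 stood at 85.5, 93.5 and 78.4 CPM with deletion, against 78.5 and 87.9 CPM in controls, and its log2 fold change was 0.04 (SE 0.16). Both controls lay within the deletion range. Clec4a2, which encodes the inhibitory receptor DCIR, stood at 64.7, 87.7 and 72.0 CPM with deletion, against 78.6 and 71.3 CPM in controls. Both controls lay within the deletion range, and the log2 fold change was -0.0030 (SE 0.19). With the length trend removed, the values were -0.52 for Clec4a3 and -0.28 for Clec4a2, while the median of all genes was -0.12 against 0.05 without that step.

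Clec5a (chromosome 6, 40574894 to 40585821, minus strand), which encodes the DAP12-coupled receptor MDL-1, was the member with the highest CPM in every library. It stood at 124, 115 and 99.9 CPM with deletion, against 126 and 106 CPM in controls. The log2 fold change was -0.04 (SE 0.17), and the groups overlapped.

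The Fcer1g-coupled sensors of the cluster were rare. Clec4n, which encodes the fungal mannan receptor Dectin-2, had 17, 18 and 25 counts in the deletion libraries, against 1 and 19 counts in the controls. In CPM, deletion library 3 was the highest, at 2.55, and control library 2, at 1.219, was close to deletion libraries 1 and 2. The groups did not overlap, by a narrow margin. The log2 fold change was 1.45 (SE 0.99), and it was 0.52 without control library 1 and 4.43 without control library 2.

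Clec4e encodes Mincle, a receptor for glycolipids and for a protein released by dying cells, and Clec4d encodes its partner. Clec4e had 17, 3 and 6 counts in the deletion libraries and 0 and 0 counts in the controls. Set against a floor of 3 counts over both controls together, its pooled counts were at least 7.54-fold higher with deletion. That value takes the 26 deletion counts as exact. Clec4d had 16, 5 and 0 counts in the deletion libraries and 0 and 1 counts in the controls, a ratio of pooled counts of 18.3 (exact 95% interval 2.94 to 756). For both genes deletion library 1 gave most of the counts. The Clec4d interval covers counting error only, and the Clec4e value only that of the controls.

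Clec12a (chromosome 6, 129342691 to 129365303, plus strand), an inhibitory receptor for uric acid crystals, stood at 3.90, 3.22 and 1.222 CPM with deletion, against 1.28 and 3.59 CPM in controls. The groups overlapped, and the log2 fold change was 0.19 (SE 0.67).

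Of the 10 genes, 8 passed the filter on low counts, and Clec4d and Clec4e did not. Cd69 (14 and 10 counts in the controls) and Clec4n (1 and 19 counts) could not have passed on the controls alone. In edgeR's quasi-likelihood fit of all 12240 genes, with Benjamini-Hochberg adjustment and a threshold of 0.05, 2 of the 8 were called higher, Cd69 and Cd72, where 2.08% of all genes were called higher. None of the 8 was called lower, where 0.507% of all genes were. Groups did not overlap in 4 of the 8, where they did not in 40.2% of all genes, and all 4 (Cd69, Cd72, Clec4a1 and Clec4n) had deletion above, where 21.8% of all genes had each deletion library above both controls. Since the genes were chosen on this comparison, nothing is read from these counts. In all, 317 genes were called (2.59%), 255 higher and 62 lower, and with the length trend removed 162 were higher and 85 lower. Both calls were lost without control library 2, a fit in which 0 genes in all were called (1323 at an unadjusted p under 0.05), and the call of Cd72 was lost without control library 1, where 18 genes were called.

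**Figure D2:**
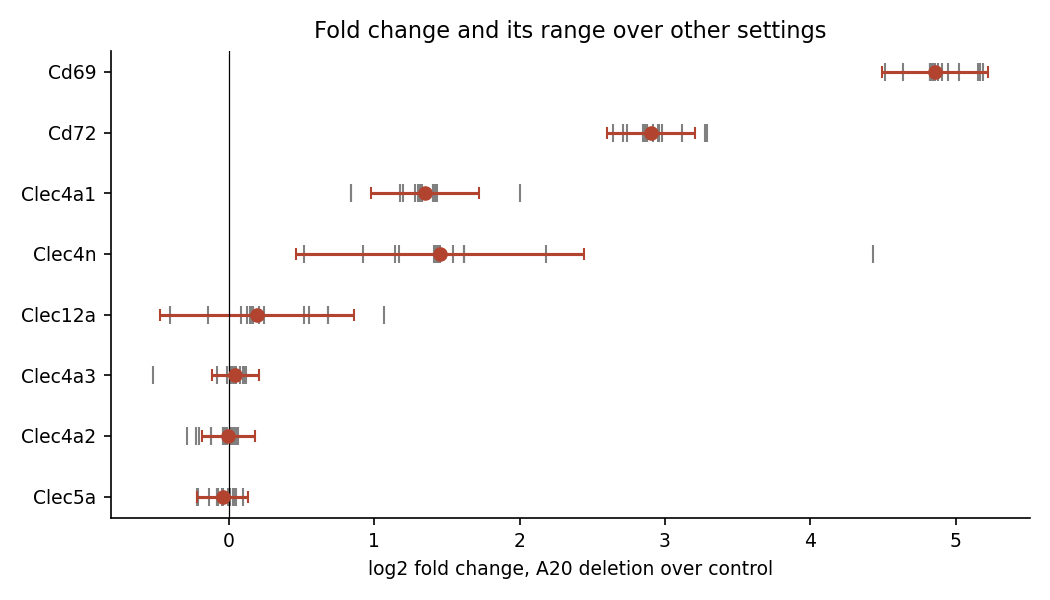
Log2 fold change of A20 deletion over control for the 8 receptor genes that passed the filter, with the SE as bars, and grey ticks for the value under each other setting tried. Cd69 ranged from 4.52 to 5.19 and Cd72 from 2.64 to 3.29 on the log2 scale, Clec4n from 0.52 to 4.43, and Clec5a, Clec4a2 and Clec4a3 lay on both sides of 0.

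Xist was counted in deletion library 1 (616 times) and control library 1 (780 times) and not in the others, and so the comparison was also read within libraries alike in this. For Cd69 the log2 difference was 4.70 with Xist counts (1 library against 1) and 4.71 without (2 against 1), and for Cd72 it was 3.15 and 2.75. For Clec4a1 it was 1.84 and 0.94, and for Clec4n 2.84 and 0.58. For Clec12a it was 1.497 and -0.80, opposite in sign.

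Per kilobase of annotated exon, the level of Clec4a3 was the highest of the 10 in each library. In the A20 deletion group it averaged 64.7 ± 5.67 CPM per kb, followed by Clec5a at 29.4 ± 3.12, Clec4a2 at 25.6 ± 4.00, Cd72 at 17.4 ± 5.17 and Clec4a1 at 12.01 ± 2.23 CPM per kb (SD, n = 3). Libraries of Clec5a and Clec4a2 overlapped there, as did those of Clec4a2 and Cd72 and those of Cd72 and Clec4a1. Below them came Cd69 at 3.67 ± 0.878, Clec4n at 1.28 ± 0.449, Clec12a at 0.503 ± 0.252, Clec4d at 0.371 ± 0.447 and Clec4e at 0.156 ± 0.128 CPM per kb, the last 3 overlapping in turn.

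In the controls the order of these levels was Clec4a3 at 62.7 ± 4.98, Clec5a at 30.3 ± 3.73, Clec4a2 at 25.6 ± 1.76, Clec4a1 at 4.69 ± 2.57 and Cd72 at 2.33 ± 0.267 CPM per kb (SD, n = 2). Clec4n at 0.454 ± 0.572 and Clec12a at 0.441 ± 0.296 CPM per kb overlapped. Cd69 at 0.126 ± 0.0385 CPM per kb stood eighth, above Clec4d and Clec4e. Cd69 thus held the sixth place in every deletion library and the seventh or eighth in the controls.

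**Figure D3:**
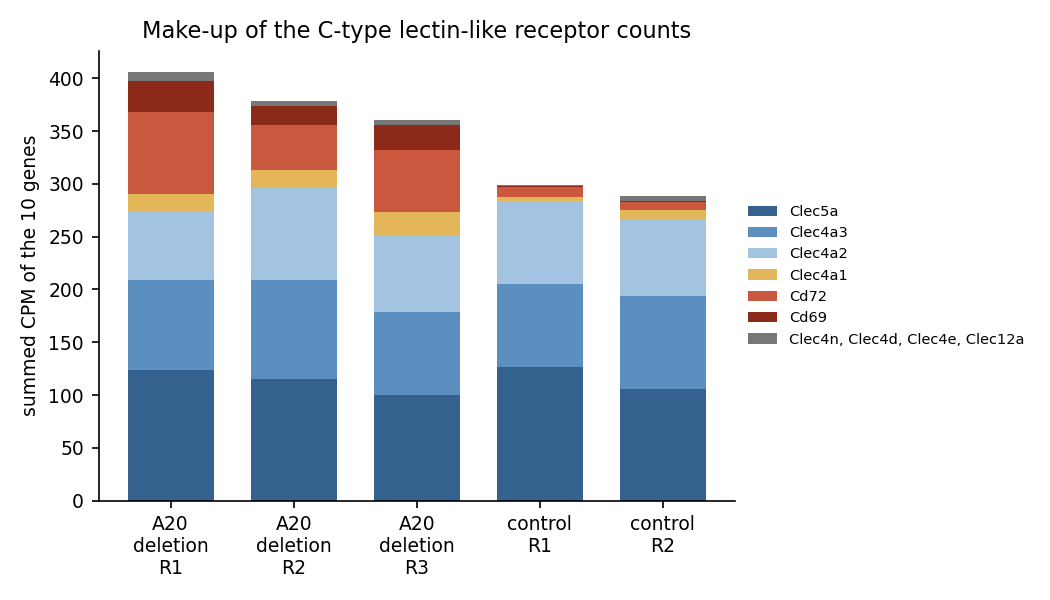
Summed CPM of the 10 receptor genes in each library, stacked by gene, A20 deletion libraries on the left. The summed level was 405.8, 379.0 and 360.3 CPM in the deletion libraries and 299.0 and 288.4 CPM in the controls, and the red parts (Cd72, Cd69) make up most of the added height.

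Clec5a, Clec4a2 and Clec4a3 made up 67.5%, 78.2% and 69.5% of the summed CPM of the 10 genes in the deletion libraries, against 94.8% and 92.0% in the controls. Cd69 and Cd72 made up 26.5%, 15.97% and 23.0% with deletion, against 3.21% and 2.76% in controls. Among the deletion libraries, library 2 had the lowest share for this pair.

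Of the genes, 6 lie in 1 cluster of 9 Clec4 genes that spans 368.0 kb (GRCm38 chromosome 6, 122921848 to 123289870). Their levels differed widely within it. Clec4b2, which is not one of the 10, had 0 counts in all libraries, and Clec4b1 and Clec4a4, also outside the 10, had 1 and 8 counts with deletion against 1 and 5 counts in controls. Clec4a3 starts 30.7 kb from Clec4a1. Clec4a1, Clec4n and Clec4e stood above both controls in each deletion library, as did 21.8% of all genes tested. Clec4n did so by a narrow margin, and Clec4e did not pass the filter on low counts. Clec4a3 and Clec4a2, which overlapped between the groups, lay between Clec4a1 and Clec4n, and Clec4d, which also overlapped, lay between Clec4n and Clec4e. These genes were chosen on this comparison, so nothing is read from their order. Of the 31-base words in Clec4a2 transcripts, 10.3% also occur in other genes (4.96% in Clec4a4), so that its count is less certain in this respect than those of Clec4a1, Clec4d, Clec4e and Clec5a, which shared 0%. Cd72 shared 0% of these words as well, but its exons overlap those of Tesk1 as given above.

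**Figure D4:**
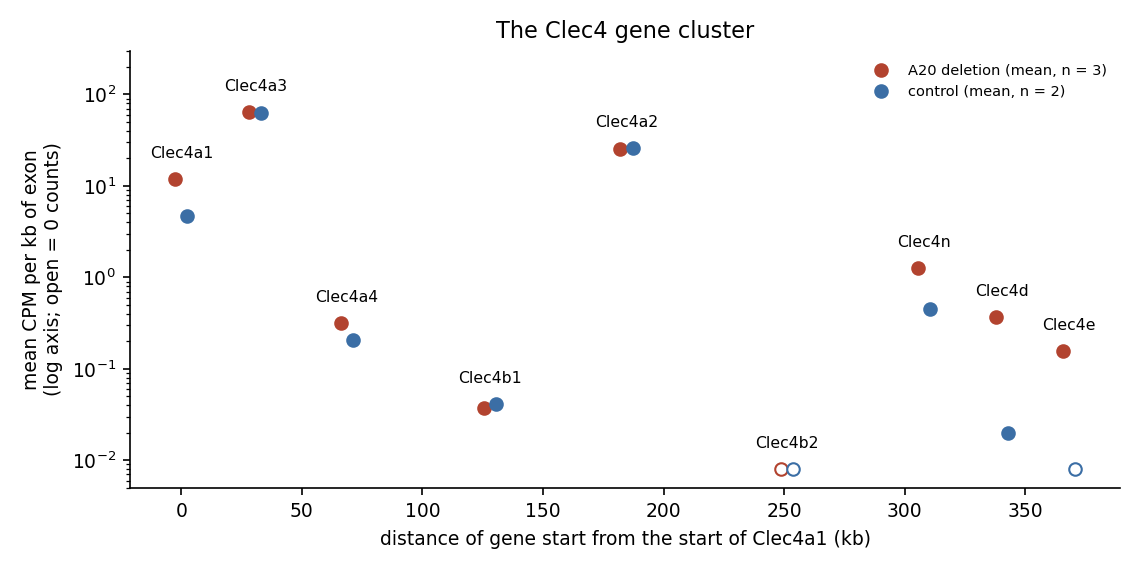
Mean CPM per kb of exon on a log axis for the 9 Clec4 genes against the distance of each gene's start from that of Clec4a1 in kb, A20 deletion in red and control in blue, with open symbols for 0 counts. Clec4a3 and Clec4a2 show the same height in both groups, while Clec4a1, Clec4n, Clec4d and Clec4e are higher with deletion.

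Myeloid cells other than microglia also express several of these genes. All 10 microglia markers were counted in each library and summed to between 38066 and 42792 CPM with deletion, against 53174 and 58593 CPM in controls. Of 10 monocyte markers 3 were higher in each deletion library, where 21.8% of all genes tested were. The monocyte list summed to between 58.0 and 85.0 CPM with deletion, against 25.8 and 35.0 CPM in controls. Neutrophil markers (2 of 11 higher) summed to between 342.5 and 367.2 CPM with deletion, against 242.0 and 243.6 CPM in controls, nearly all from Csf3r. Ly6g had 0 counts with deletion and 0 and 1 in controls. S100a8, S100a9, Ngp, Ltf and Camp were counted mainly in library 1 of each group. S100a9, for example, had 39, 1 and 7 counts with deletion and 93 and 2 counts in controls. Mmp9 and Cxcr2 were highest in deletion library 3. Border macrophage markers (1 of 8 higher) summed to between 497.1 and 542.6 CPM with deletion and to 769.0 and 1317 CPM in controls. Most of that was Stab1, at 414, 411 and 444 CPM with deletion against 708 and 1184 CPM in controls. Mrc1, Cd163, Lyve1, Pf4, F13a1 and Cbr2 overlapped between the groups, and Ms4a7 was higher with deletion. Dendritic cell markers (5 of 9 higher) summed to between 17.9 and 29.0 CPM with deletion and 17.9 and 19.3 CPM in controls. Itgae, at 2.43, 6.60 and 5.40 CPM with deletion and 10.5 and 10.5 CPM in controls, was lower and made up most of the control sums. The part of these myeloid cells in the values of Clec4a1, Clec4n, Clec4d, Clec4e and Clec12a was not tested.

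Other C-type lectin-like receptors were read from the same fit as a list of 46 genes. Of these, 14 had no count in any library and 16 passed the filter, with a median log2 fold change of 1.43 against 0.05 over all genes. Clec1a, Clec1b and Cd209f, with at most 5 counts in a control, passed only through the deletion libraries. Olr1, Asgr2, Mgl2 and Colec12, with 8, 8, 8 and 5 counts in control library 1, could not have passed on the controls alone. Such a filter favours higher values with deletion, so nothing is read from this median or from the counts of the 16 genes given below. None of the 16 was called by edgeR in either direction, although 8 had an unadjusted p under 0.05 (7 higher), where 21.04% of all genes had. DESeq2 called 3 of the 16, where it called 9.07% of all genes, and limma-voom called 0, where it called 1.72%. Clec10a, a galactose-type lectin, stood at 3.47, 7.47 and 5.70 CPM with deletion, against 0.782 and 1.54 CPM in controls (log2 2.24, SE 0.54, edgeR adjusted p = 0.0868). Clec2d stood at 3.55, 6.603 and 4.28 CPM with deletion, against 1.35 and 1.09 CPM in controls (log2 1.97, SE 0.48, edgeR adjusted p = 0.0886). Mrc2, the collagen receptor with the highest level in CPM of the list, stood at 179, 175 and 133 CPM with deletion, against 213 and 316 CPM in controls (log2 -0.70, SE 0.22, edgeR adjusted p = 0.16). Clec7a, the beta-glucan receptor Dectin-1, picked with its values known, stood at 30.2, 25.8 and 24.5 CPM with deletion, against 21.4 and 14.8 CPM in controls (edgeR adjusted p = 0.22). Groups did not overlap in 10 of the 16 genes, these 4 among them, where they did not in 40.2% of all genes.

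Of 25 receptors of the natural killer gene complex found in the table, 10 had no count and 4 passed the filter (median log2 fold change 1.35). Klra2 and Klrb1b passed only through the deletion libraries, so nothing is read from that median or from the counts of the 4 genes given next. None of the 4 was called by edgeR (3 at an unadjusted p under 0.05, where 21.04% of all genes were), DESeq2 or limma-voom. Klrb1b, an inhibitory receptor whose ligand is the product of Clec2d, stood at 3.64, 0.943 and 3.06 CPM with deletion, against 0.64 and 0.513 CPM in controls (edgeR adjusted p = 0.19). Klrd1, which forms dimers with NKG2 receptors, stood at 1.04, 2.04 and 0.611 CPM with deletion, against 2.28 and 5.45 CPM in controls (edgeR adjusted p = 0.22). Klrg2, which had the highest mean CPM of the 4 over all 5 libraries but not in the controls, was at 2.85 to 6.32 CPM with deletion, against 2.05 and 3.77 CPM in controls.

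Among 20 activating adaptors and kinases 1 was called higher and 0 lower, where 2.08% and 0.507% of all genes were, with a median log2 fold change of 0.13. Fgr, a Src-family kinase of myeloid cells, rose 2.47-fold, to 21.1, 18.6 and 17.2 CPM with deletion, against 8.25 and 7.12 CPM in controls (log2 1.30, SE 0.21, edgeR adjusted p = 0.0291). That call was lost on leaving out any one of deletion libraries 2 and 3 and controls 1 and 2, with the length trend removed and at an adjusted p threshold of 0.01. Tyrobp, which encodes DAP12, had the highest mean CPM over all 5 libraries, though not in the controls alone, where Lyn was higher. It stood at 965, 1294 and 1213 CPM with deletion against 747 and 839.6 CPM in controls (log2 0.54, SE 0.18, edgeR adjusted p = 0.167). Fcer1g, which encodes FcRgamma, and Syk were chosen after their values were seen. Fcer1g stood at 661, 981 and 874 CPM with deletion, against 479 and 524 CPM in controls (edgeR adjusted p = 0.12). Syk stood at 292, 168 and 159 CPM with deletion, against 335 and 309 CPM in controls (edgeR adjusted p = 0.244).

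**Figure D5:**
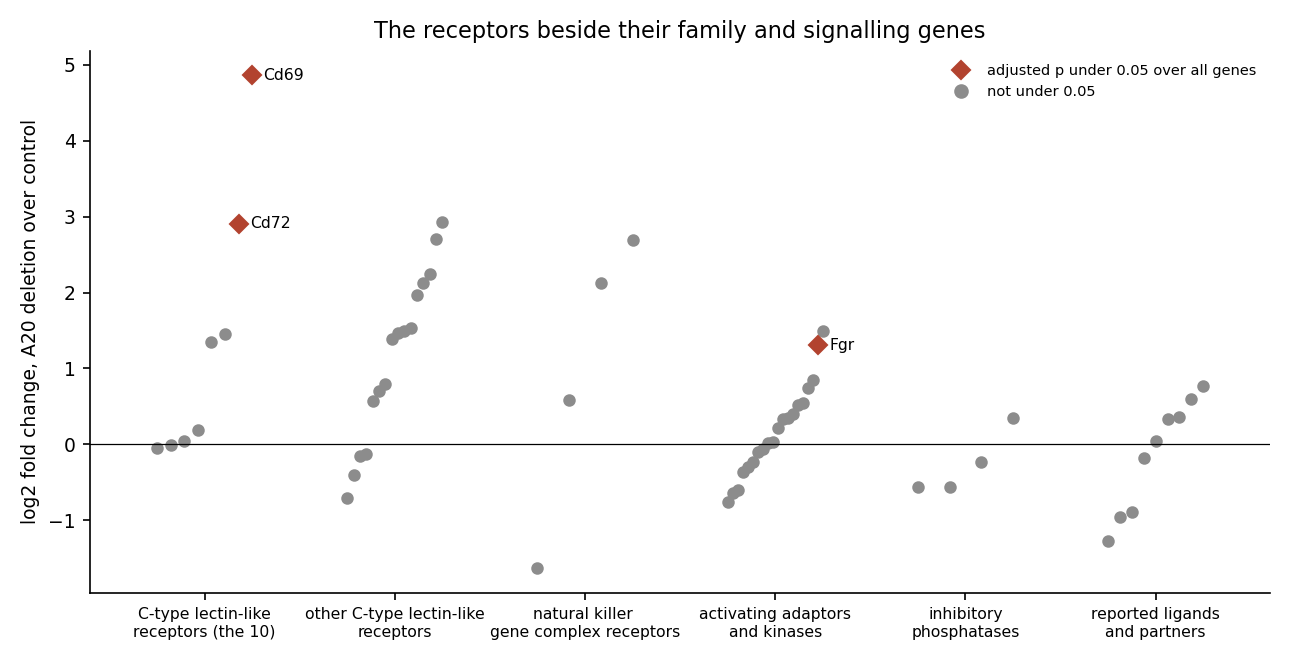
Log2 fold change of A20 deletion over control for each gene that passed the filter, by list, with red diamonds for genes with an adjusted p under 0.05 over all genes. Cd69 and Cd72, chosen on this comparison, lie at 4.86 and 2.91, and Fgr at 1.30 is the only diamond in the other lists.

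The 4 inhibitory phosphatases had a median log2 fold change of -0.40, and none was called by edgeR (1 at an unadjusted p under 0.05, where 21.04% of all genes were), DESeq2 or limma-voom. Inpp5d, which encodes SHIP1, stood at 1222, 829 and 783 CPM with deletion, against 1468 and 1328 CPM in controls (edgeR adjusted p = 0.21). Ptpn6, which encodes SHP1, stood at 387, 416 and 387 CPM with deletion, against 325 and 299 CPM in controls (edgeR adjusted p = 0.238).

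Of 10 reported ligands and partners 9 passed the filter (median log2 fold change 0.04), and none was called by edgeR, with 3 at an unadjusted p under 0.05, where 21.04% of all genes were. DESeq2 called 2, where it called 9.07% of all genes, and limma-voom 0. S1pr1, the receptor that Cd69 binds, stood at 36.2, 47.3 and 42.5 CPM with deletion, against 70.4 and 92.5 CPM in controls (log2 -0.95, SE 0.20, edgeR adjusted p = 0.0591). Every deletion library was below both controls. Lgals9 stood at 414, 412 and 415 CPM with deletion, against 273 and 274 CPM in controls (log2 0.60, SE 0.14, edgeR adjusted p = 0.0868). Sema4d, the ligand of Cd72, stood at 591, 434 and 451 CPM with deletion, against 471 and 486 CPM in controls, and overlapped between the groups.

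Patterns across the 5 libraries were compared by the root-mean-square distance between log2 CPM values, taken relative to the gene's control mean. Clec4a2 and Clec4a3 were nearest to each other, 0.15 apart, and Clec5a was nearest to Clec4a3, 0.17 apart. Clec4a1 and Clec4n were nearest to each other at 0.54. Cd69 and Cd72 stood further from any other member, the nearest distances being 1.38 and 1.219. Among 8292 named genes of log2 CPM 3 or more on average, the nearest to the median profile of the 8 genes were Slamf6 (0.03), P3h3 (0.07) and Npc2 (0.08). They were 1.94-fold, 1.92-fold and 1.85-fold higher with deletion. That median, at 1.04, 0.93 and 0.84 in deletion libraries 1 to 3, lies between Clec12a and Clec4a1 and follows no single member. Its genes were chosen on this comparison, so no likeness to the receptors is read from it. These distances describe 5 libraries and rest on depth and scaling that all genes share.

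The libraries themselves held 11902432, 12883827 and 9726334 counts with deletion and 13946211 and 15275199 in controls. Mitochondrial transcripts took 0.847%, 4.63% and 3.56% of counts with deletion and 1.19% and 0.852% in controls, so that deletion library 1 stood apart from libraries 2 and 3. With libraries 2 and 3 left out, the log2 fold change of Cd69 was 5.19 and that of Cd72 3.29. Tnfaip3 had levels of 295, 277 and 348 CPM with the A20 deletion label, against 454 and 94.7 CPM in controls. The exons that Cre removes are not named in the labels, so this sum over all exons is no check of the deletion.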

How the data were processed

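RNA sequencing of sorted microglia was analysed in 5 libraries, 3 with A20 deletion and 2 controls. The deposited values are raw counts of reads per Ensembl gene. Per the submitters' processing notes, the authors used STAR 2.4.0j, featureCounts, DESeq2 1.22.1 and build GRCm38. Which annotation, strand setting and multi-mapping rule they used is not given in the sources used here. Symbols came from a table of Ensembl gene names, which matched 40254 of 41388 genes, positions and exon lengths from GENCODE M21, and promoters from RefSeq (GRCm38.p6), which held 8 of the 10 genes. Genes without a symbol held 0.0557% to 0.069% of counts and stayed in the tests.

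Counts were fitted in R 4.3.3 with edgeR 4.0.16 (filterByExpr, minimum count 10 and minimum total 15; TMM scaling; glmQLFit and glmQLFTest, two-sided; no covariate). Benjamini-Hochberg adjustment ran over all 12240 genes tested. CPM uses TMM-scaled library totals, and log2 CPM a prior count of 2. A fold change's SE is its size over the square root of F. The procedure was tested on simulated data. No replicate libraries agreed within sampling noise (chi-square per degree of freedom 14.4 to 76.5). Alternatives were DESeq2 1.42.0, limma-voom (limma 3.58.1), other scalings, filters and threshold, added terms, and leaving out libraries. Apart from all 10 members, named genes were those called in a list or the 2 with the smallest p, plus the most abundant (at most 5 called per list), and the 3 genes nearest in profile. The members and lists were chosen with earlier results of these data known. Further marker lists (neurons, astrocytes, oligodendrocytes, endothelial and erythroid cells) are given in the closing section. One B cell marker is not reported here and was left out of that list.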

Additional observations from a re-analysis of the deposited data

How the results depend on the processing

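With 2 controls, single libraries decide most calls. Of the 10 receptor genes 2 were called, and 4 with no filter on low counts (Cd69, Cd72, Clec4a1, Clec4e). Leaving out 1 library gave 0 to 3 called receptors and 0 to 3923 genes in all. Of 317 genes called in all (2.59% of those tested), the number became 1701 (8.22%) with no filter and 1110 (9.07%) with DESeq2. It was 211 (1.72%) with limma-voom, 824 (6.73%) with a term for Xist counts and 58 at an adjusted p under 0.01. The share was 2.12% with the replicate block, 3.41% with a mitochondrial term and 2.02% with the length trend removed. The 3923 genes (32.4%), and the top of each range of list counts below, came without deletion library 1. With no filter, 32 other C-type lectin-like receptors and 15 natural killer complex receptors were tested. For the other C-type lectin-like receptors, the number called was 7 with no filter, 3 with DESeq2, 1 with the replicate block, 2 with the Xist term, 1 without both deletion libraries of high mitochondrial share, and 0 to 4 with 1 library left out. For the natural killer complex it was 1 with no filter and 0 with 1 library left out. For activating adaptors and kinases it was 4 with no filter, 5 with DESeq2, 2 with the Xist term, 2 with a mitochondrial term, 2 without both high-mitochondrial deletion libraries, 0 with the length trend removed, 0 at an adjusted p under 0.01, and 0 to 9 with 1 library left out. For inhibitory phosphatases it was 0 to 2 with 1 library left out. For ligands and partners it was 1 with no filter, 2 with DESeq2, 2 with the Xist term, 1 with a mitochondrial term, 1 with the length trend removed, 1 without both high-mitochondrial deletion libraries, and 0 to 3 with 1 library left out. The cause of these shifts was not tested. With no filter 20699 genes were tested, and leaving out libraries leaves fewer samples. Leaving out both high-mitochondrial libraries was added after the data were seen and leaves a single deletion library, whose spread is taken to equal that of the controls.

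Replicate numbers 1 and 2 occur in both groups, but nothing says that they pair the libraries. With the replicate block 2 receptors (Cd69, Cd72) and 260 genes in all were called, and deviations of same-numbered libraries correlated at 0.26 and 0.17. Cd69 was called under 15 of 16 alternatives and Cd72 under 14, while Clec4a1 was called under 4. At this depth 3 counts correspond to between 0.196 and 0.308 CPM, which limits Clec4d and Clec4e.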

Other observations

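Markers of other brain cells also differed between libraries. Astrocyte markers summed to 166.4, 296.8 and 300.3 CPM with A20 deletion and to 134.4 and 181.5 CPM in the controls, and oligodendrocyte markers to 257.8, 364.8 and 366.0 CPM with deletion and 193.5 and 221.0 CPM in controls. Endothelial markers were highest in deletion library 1, at 122.2 CPM, against 65.3 and 62.1 CPM in the other deletion libraries and 66.8 and 72.2 CPM in controls. Of these 6 markers 5 were higher in each deletion library than in both controls. Pecam1, at 26.3, 35.2 and 28.0 CPM with deletion and 50.6 and 53.1 CPM in controls, was lower and made up most of the control sums. Neuron markers summed to 7.19, 11.01 and 9.47 CPM with deletion and 5.69 and 2.63 CPM in controls. Erythroid markers summed to 8.14, 18.8 and 0.102 CPM with deletion and 0.0711 and 23.5 CPM in controls. In the other lists, the markers higher in each deletion library were 2 of 6 for astrocytes and 4 of 6 for oligodendrocytes. They were 1 of 7 for neurons and 0 of 6 for erythroid cells, where 21.8% of all genes tested were higher.

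Clec14a, a receptor of endothelial cells, had 57, 0 and 1 counts in the deletion libraries and 0 and 0 counts in the controls. Colec12 stood at 2.34, 31.8 and 36.7 CPM with deletion and 0.356 and 16.4 CPM in controls, low in the library of each group that held Xist counts. Both were chosen after their values were seen. Clec14a did not pass the filter on low counts, and was called with no filter and without both deletion libraries of high mitochondrial share. Colec12 was not called in the edgeR fit of the report, and was called with no filter and with a term for Xist counts.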
